A study of Mus musculus with 23 samples.

Results

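The TGF-beta pathway was followed through 9 of the 27207 genes in the count table, taken by symbol: the ligands Tgfb1 and Tgfb2, the receptors Tgfbr1 and Tgfbr2, the signal transducer Smad3, the feedback inhibitors Smad7, Skil and Pmepa1, and the target Tgfbi. These genes were picked with their levels across the 6 groups already known, so their values are given as a description and without a p-value. Of the 9, 8 had enough counts to enter the fit across genes, and Tgfb2 did not. The 23 libraries came from mouse pancreatic ductal adenocarcinoma cells of the genotypes KC, with a Ptf1a Cre driver, and KPC, with a Pdx1 Cre driver. KC cells were grown in 2D in flasks (n = 6), for 7 days (n = 3) or 13 days (n = 5) as organoids in floating collagen I gels, or for 13 days as organoids in growth factor-reduced Matrigel (n = 3), all in a first batch. A second batch held KC (n = 3) and KPC (n = 3) organoids after 13 days in collagen. The batches are those of the labels, and they name no added agent. No genotype is known to rest on more than 1 mouse, and the study's results speak of a single KPC mouse. Titles of the first batch share 1 KC line number, and those of the second batch carry none. The titles therefore do not show whether both batches used the same KC line. The Cre driver differs between the genotypes along with other engineered alleles. The 2D cells were lysed in the flask, whereas the organoids were first freed from the matrix with collagenase. The study describes the RNA replicates in Matrigel and in collagen of the first batch as separate experiments. Its main text does not say so for the 2D libraries or for the second batch. The p-values below measure the spread between libraries, whatever their independence.

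TGF-beta ligands are secreted in a latent complex and are freed by integrins such as alpha-v beta-6 and by thrombospondin. The active ligand joins a type II to a type I receptor, which phosphorylates Smad2 and Smad3, and these enter the nucleus with Smad4. Among the genes that are then switched on are several that restrain the pathway: Smad7 blocks the type I receptor, Skil holds Smad complexes in a repressed state, and Pmepa1 keeps Smads from the receptor. In the pancreas the pathway is known for restraining epithelial growth and for driving epithelial-mesenchymal transition and matrix production in carcinoma.

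The cultures expressed ductal markers, with markers of other cell types at far lower summed levels. All 8 ductal markers, among them Krt19 and Epcam, were detected well enough to be tested, with a summed level of 7181 to 14010 CPM per library (counts scaled to a common library size with TMM factors). Epcam itself was at 5.87 ± 1.73 CPM at day 7 against 56.2 ± 13.4 CPM at day 13 of the first batch (SD). The 5 endothelial markers had at most 3 counts in every library, as had the fibroblast markers Lum, Thy1 and Fap and the immune markers Ptprc, Csf1r and Lyz2. Total counts ran from 1221451 to 2471058 per library, so that 3 counts, the most that a count of 0 allows, correspond to 1.16 to 3.22 CPM. Libraries 1 to 3 of the 2D group stood apart from libraries 4 to 6, with correlations of log2 CPM of 0.917 to 0.934 between the sets against 0.963 to 0.983 within them. Several results on the 2D group are therefore given for each set too, and the others rest on all 6 libraries. Of the 10 fibroblast markers 4 (Col1a2, Col3a1, Dcn and Acta2) were abundant enough to be tested, and the summed level of the list was 34.8 to 113 CPM in the organoids. Col1a2 was the highest of them, at 61.1 ± 30.5 CPM in 2D and 35.1 ± 12.6 CPM in collagen at day 13 of the first batch (SD). The summed level of the immune markers was 30.7 to 36.6 CPM in Matrigel and 12.1 to 22.1 CPM in collagen of the same batch and day. It was 3.41 to 5.88 CPM at day 7, and in the second batch 5.99 to 11.6 CPM in KPC and 18.7 to 21.2 CPM in KC. Most of it came from Cd68, the only marker of that list that was abundant enough to be tested. Of the 5 acinar markers 2 are in the table and 1, Cela1, was tested. Their sum was 2.98 to 4.26 CPM at day 7, 11.6 to 14.8 CPM at day 13 of the first batch and 5.48 to 20.4 CPM in 2D. The part of these markers in the results was not tested.

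Among the organoids, 7 immediate early genes that respond to enzymatic dissociation (such as Fos and Jun) differed strongly in their summed level. It was 1339 to 1951 CPM at day 7, 2436 to 2949 in the first and 3558 to 4047 in the second KC batch at day 13, 1035 to 1121 in Matrigel and 2135 to 2404 in KPC, against 620 to 1124 in 2D. Their part in the results below was not tested, and for 2D against organoids it cannot be told apart from the culture. In bulk RNA, fewer cells of a type and less RNA per cell cannot be told apart.

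The upstream sequences of the ligands and of the type II receptor are shown because the 2 ligands had very unlike levels in these cells and the receptor was lowest where Pmepa1 was highest. Each window covers 250 bases before to 50 bases after the RefSeq start on GRCm38.p6, read 5′ to 3′ on the gene's own strand, and capitals mark the Smad box, CAGAC or its reverse complement GTCTG. RefSeq windows were matched for Tgfb1, Tgfb2, Tgfbr1, Tgfbr2, Smad3 and Tgfbi. No window was at hand for Smad7, Skil or Pmepa1, so their upstream sequences were not searched.

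Tgfb1, chr7:25686752-25687051, plus strand: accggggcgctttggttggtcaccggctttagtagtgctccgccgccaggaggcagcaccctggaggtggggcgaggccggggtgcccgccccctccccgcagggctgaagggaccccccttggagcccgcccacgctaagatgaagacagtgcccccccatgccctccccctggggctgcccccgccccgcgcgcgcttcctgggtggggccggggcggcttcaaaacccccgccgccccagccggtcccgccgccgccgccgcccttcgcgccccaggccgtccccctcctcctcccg
Tgfb2, chr1:186705940-186706239, minus strand: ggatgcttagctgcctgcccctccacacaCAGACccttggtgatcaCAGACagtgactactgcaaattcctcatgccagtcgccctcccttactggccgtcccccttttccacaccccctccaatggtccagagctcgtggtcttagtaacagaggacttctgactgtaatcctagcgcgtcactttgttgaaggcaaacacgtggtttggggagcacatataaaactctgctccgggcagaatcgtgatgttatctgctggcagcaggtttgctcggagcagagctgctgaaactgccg
Tgfbr2, chr9:116175314-116175613, minus strand: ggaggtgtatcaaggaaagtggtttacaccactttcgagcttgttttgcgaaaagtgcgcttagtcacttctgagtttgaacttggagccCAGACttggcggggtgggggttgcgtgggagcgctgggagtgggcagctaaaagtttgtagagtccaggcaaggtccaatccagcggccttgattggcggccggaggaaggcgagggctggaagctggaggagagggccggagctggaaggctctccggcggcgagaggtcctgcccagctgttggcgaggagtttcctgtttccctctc

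The Tgfb1 window is made of 77.0% G and C and holds no Smad box. The Tgfb2 window holds 2, at 221 and 204 bases before the start, in 54.3% G and C, and the Tgfbr2 window holds 1, at 160 bases before the start. The Tgfbi window on chr13 holds 2 and the Smad3 window none. For Tgfbr1 the first window holds none and the second holds 1, at 203 bases before its start. These letters are common, as 49.7% of the 27025 promoter windows of the mouse genome hold the box on either strand. None of the searched windows holds the full palindrome GTCTAGAC, the AP-1 element TGACTCA or the element TGACGTCA. Over all windows these were found in 0.2%, 5.2% and 1.9% on either strand. Nothing is known here of Smad7, Skil and Pmepa1 in this respect. The matches are a description of the sequence and not of bound sites.

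Pmepa1, a membrane protein that TGF-beta induces and that limits its signal, had the widest range of levels among the 8 fitted genes, 4.77-fold between the highest and the lowest group mean. It was measured at 393, 422 and 468 CPM in collagen at day 7 and at 84.4, 97.8, 85.7, 107 and 74.1 CPM in collagen at day 13 of the first batch. In Matrigel it stood at 219, 214 and 204 CPM. The 2D libraries had a lowest value of 145, a median of 149.9 and a highest value of 169 CPM. In the second batch the KC organoids had 107, 121 and 115 CPM and the KPC organoids 202, 199.9 and 203 CPM. The 6 groups therefore fell in the order collagen day 7, Matrigel, KPC, 2D, KC collagen day 13 of the second batch and KC collagen day 13 of the first batch, and no 2 neighbours in that order overlapped. The gap between the last pair was small, since the highest library of the first batch and the lowest of the second both round to 107 CPM. Matrigel and KPC were also close, with 204.0 CPM in the lowest Matrigel and 202.7 CPM in the highest KPC library. That pair differs in batch, genotype and matrix. Levels at day 7 were 2.25 ± 0.104 above those at day 13 on the log2 scale (SE of the edgeR fit), a 4.76-fold difference, and those in Matrigel were 1.24 ± 0.105 above collagen of the same age. KPC organoids were 0.82 ± 0.122 above KC organoids of their batch. The 2 batches of the KC organoids differed by 0.35 ± 0.111. Pmepa1 in 2D was lower than at day 7 by a log2 difference of -1.49 ± 0.0984 and higher than at day 13 by 0.76 ± 0.0923. With 2D libraries 4 to 6 alone these were -1.45 and 0.74, and with libraries 1 to 3 alone -1.50 and 0.77.

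Skil, which encodes the Smad repressor SnoN, followed another order. Its levels were 39.2, 36.4 and 37.1 CPM at day 7 and 24.6, 23.5, 19.1, 34.9 and 23.1 CPM at day 13 of the first batch. Matrigel organoids had 51.5, 44.5 and 49.5 CPM. In the second batch Skil reached 47.7, 64.8 and 58.0 CPM in KC and 74.1, 65.8 and 48.04 CPM in KPC organoids. The 2D libraries spanned 23.6 to 35.9 CPM with a median of 29.8. The organoids of the second batch, of either genotype, overlapped those in Matrigel, and all of them lay above day 7, 2D and the first batch at day 13. Between the KC batches the log2 difference was 1.17 ± 0.168, larger than the 0.95 ± 0.164 between Matrigel and collagen and the 0.58 ± 0.168 between day 7 and day 13. When the reference was the 8 KC collagen libraries of both batches, the last 2 differences were 0.42 and 0.05. KPC and KC organoids overlapped, with a log2 difference of 0.14 ± 0.178 that was -0.01 without KPC library 1.

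Smad7, the inhibitory Smad, was highest in the second KC batch. There it was measured at 62.2, 84.4 and 54.0 CPM, against 29.7, 24.0, 20.6, 34.0 and 34.7 CPM in the first batch at the same day. KPC organoids had 53.0, 44.3 and 38.01 CPM, and day 7 organoids 37.3, 41.8 and 55.8 CPM. Only the second KC batch was clear of its neighbour in the order of the means, and by 1 CPM, since its lowest library lay at 54.0 and the highest of KPC at 53.0. In Matrigel Smad7 had 26.4, 33.6 and 37.9 CPM and overlapped collagen of the first batch. In 2D it ranged from 11.9 to 23.7 CPM with a median of 18.5 and was the lowest of the groups. The log2 difference between the batches was 1.22 ± 0.192, and that between day 7 and day 13 was 0.66 ± 0.192, or 0.10 against the 8 libraries of both batches. For Matrigel the same choice turned the sign, from 0.18 ± 0.202 to -0.38. KPC lay below KC by -0.57 ± 0.214, and 2D below day 7 by -1.35 ± 0.203 and below day 13 by -0.70 ± 0.193. The last 2 were -1.46 and -0.85 with 2D libraries 4 to 6 alone and -1.17 and -0.51 with libraries 1 to 3 alone. Smad7 and Skil were 2.33-fold and 2.26-fold higher in the second batch than in the first, and Pmepa1 1.27-fold. Over the 23 libraries Pearson's r of log2 CPM was 0.677 between Smad7 and Skil, 0.372 between Skil and Pmepa1 and 0.20 between Smad7 and Pmepa1. The libraries of a group share batch and culture.

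**Figure D1:**
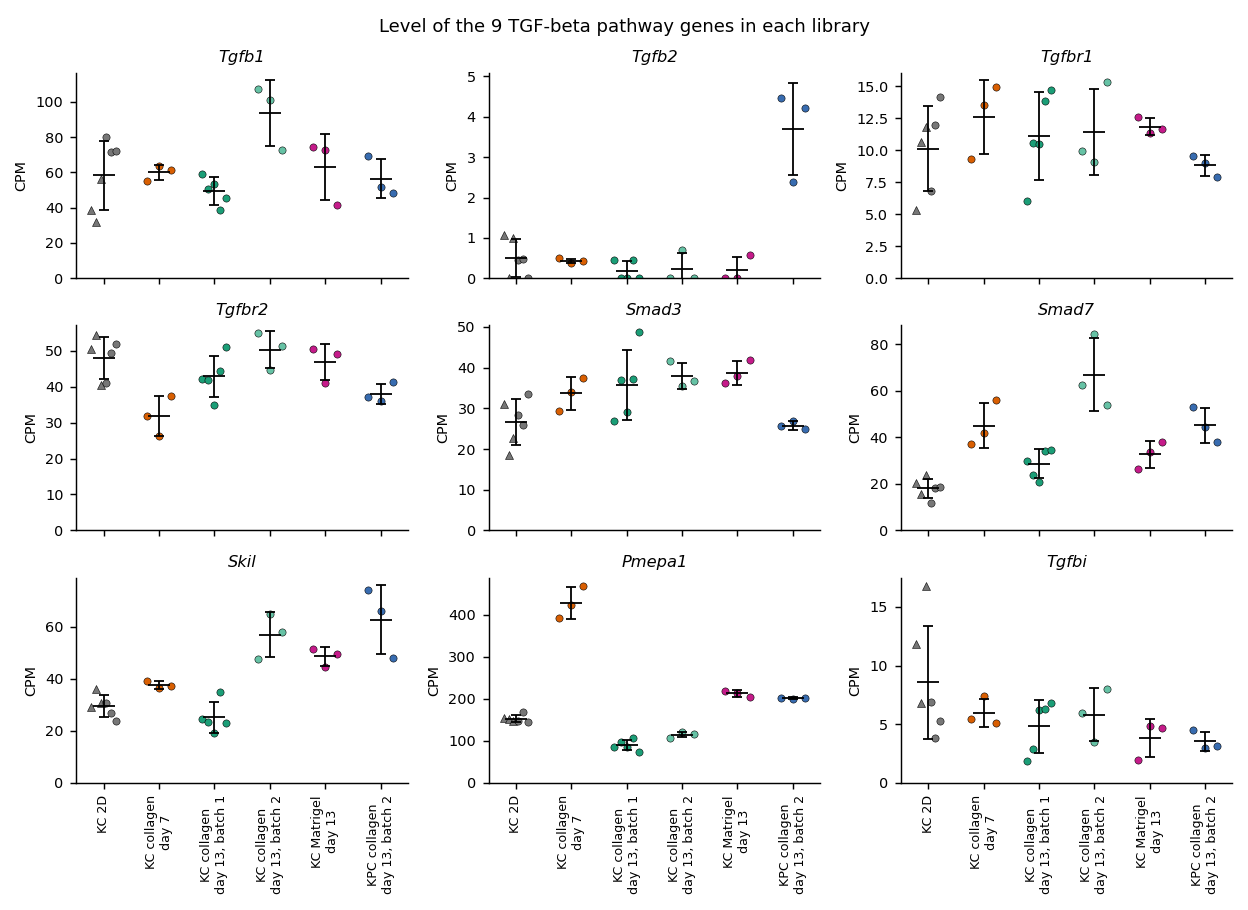
Level in CPM (vertical axes from 0) of the 9 genes in each of the 23 libraries, grouped by culture; points are libraries, triangles are 2D libraries 1 to 3, and bars give the mean ± SD. Pmepa1 stands at 393 to 468 CPM at day 7 above every other group, Smad7 and Skil are higher in batch 2 than in batch 1 of the KC organoids, and Tgfb2 has more than 1 count in the KPC libraries only, at 4 to 8.

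Tgfb1, the ligand with substantial counts, varied less than the inhibitors. Its level in the second KC batch was 107, 101 and 72.6 CPM, and in KPC organoids 69.0, 51.5 and 48.6 CPM, so that the lowest KC library lay just above the highest KPC library. In the first batch it was 58.9, 50.8, 53.6, 38.5 and 45.2 CPM at day 13 and 54.9, 63.5 and 61.4 CPM at day 7, and these groups overlapped. Matrigel libraries 1 and 2 had 74.4 and 72.8 CPM and library 3 had 41.4. The log2 difference was 0.92 ± 0.222 between the batches, -0.74 ± 0.253 between KPC and KC, 0.36 ± 0.223 for Matrigel and 0.28 ± 0.223 for day 7. The last 2 turned to -0.05 and -0.12 against the 8 KC collagen libraries of both batches.

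The 2D libraries were split in Tgfb1. Libraries 1 to 3 had 38.7, 32.0 and 56.2 CPM from 36, 33 and 57 counts, and libraries 4 to 6 had 79.9, 71.5 and 71.8 CPM from 175, 149 and 122 counts. The 2 sets did not overlap, and collagen at day 7 lay between them apart from an overlap with library 3. Over all 6 the log2 difference of 2D from day 7 was 0.01 ± 0.218, from libraries 1 to 3 alone -0.50 and from libraries 4 to 6 alone 0.33. Against day 13 the values were 0.29 ± 0.193, -0.20 and 0.56. Libraries 1 to 3 also had a higher share of mitochondrial counts (4.99% to 5.76% against 2.51% to 3.01%) and a higher sum of fibroblast markers (149 to 211 against 67.7 to 89.5 CPM), while Lum, Thy1 and Fap stayed at or below 3 counts. Their total counts were lower (1221451 to 1382736 against 1649327 to 2091391). So were their TMM factors (0.738 to 0.772 against 1.04 to 1.06), which enter the CPM values. The part of these differences in the split of Tgfb1 was not tested.

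Tgfb2, a second TGF-beta ligand, was close to absent in KC cells. No KC library had more than 1 count, and the 20 KC libraries together had 11 counts in 37041213. The 3 KPC libraries had 7, 4 and 8 counts, or 4.47, 2.39 and 4.22 CPM. All KPC libraries lay above all KC libraries. The KC organoids of the same batch had 0, 1 and 0 counts, which gave a ratio of 17.9 in the share of counts, with an exact 95% interval of 2.8 to 743.2 that covers counting error only. Set against all KC libraries the ratio was 13.0, with an interval of 5.9 to 30.2. With 19 counts from the cells of 1 mouse, the size of the difference is poorly bounded. The third ligand, Tgfb3, was measured in every group, and its values come below with the wider pathway.

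Between the highest and the lowest group mean, the receptors differed 1.43-fold (Tgfbr1) and 1.58-fold (Tgfbr2). Tgfbr1, the type I receptor, had group means between 8.83 ± 0.842 CPM (SD, n = 3) in KPC and 12.6 ± 2.92 CPM (SD, n = 3) at day 7, and all groups overlapped their neighbours in the order of the means. Its libraries held between 5 and 35 counts each. Tgfbr2, the type II receptor, was lowest at day 7, with 31.9, 26.3 and 37.5 CPM. At day 13 it had 42.2, 41.7, 34.9, 44.3 and 50.96 CPM in the first and 55.0, 44.6 and 51.3 CPM in the second KC batch. The day 7 libraries overlapped the first batch in 1 library of each group, and the log2 difference was -0.43 ± 0.143. In 2D, Tgfbr2 ran from 40.4 to 54.3 CPM with a median of 49.96 and did not overlap day 7, with a log2 difference of 0.58 ± 0.142 that was 0.61 on libraries 1 to 3 and 0.59 on libraries 4 to 6. KPC organoids, at 37.0, 35.9 and 41.2 CPM, lay below all KC libraries of their batch by -0.40 ± 0.163. Pmepa1 and Tgfbr2 had a Pearson's r of -0.53 over the 23 libraries, the most negative among the 8 fitted genes.

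Smad3 was lowest in KPC organoids and in 2D. KPC libraries had 25.6, 26.9 and 24.8 CPM and the KC libraries of the same batch 41.7, 35.6 and 36.7 CPM. The groups were separate, with a log2 difference of -0.56 ± 0.204. The 2D libraries ran from 18.4 to 33.6 CPM with a median of 27.1, and overlapped the day 13 organoids of the first batch, which ran from 26.9 to 48.9 CPM, at a log2 difference of -0.40 ± 0.149 that was -0.56 on libraries 1 to 3 and -0.33 on libraries 4 to 6. Smad3 in Matrigel (36.2, 37.9 and 42.0 CPM) and at day 7 (29.4, 34.1 and 37.5 CPM) overlapped collagen at day 13.

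Tgfbi, a secreted matrix protein named for its induction by TGF-beta, was scarce throughout, at 4 to 19 counts per library. Group means lay between 3.54 ± 0.808 CPM (SD, n = 3) in KPC and 8.56 ± 4.83 CPM (SD, n = 6) in 2D, and every group overlapped its neighbour. The highest 2D libraries were numbers 3 and 1, with 16.8 and 11.8 CPM. The log2 difference of 2D from day 7 was 0.97 with libraries 1 to 3 alone and -0.14 with libraries 4 to 6 alone. Against day 13 of the first batch the log2 difference of 2D was 0.70 ± 0.366 (SE), with an interval from -0.02 to 1.42. It was 1.305 with libraries 1 to 3 alone and 0.13 with libraries 4 to 6 alone. At these counts the size of any difference of Tgfbi was poorly bounded.

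Counted over the 8 fitted genes at an adjusted p under 0.1 (edgeR's quasi-likelihood test with Benjamini-Hochberg adjustment over 11144 genes), 4 lay past the threshold between day 7 and day 13, where 55.1% of all genes did. The others were 2 in Matrigel (12.9% of all genes), 4 in KPC against KC (19.9%), 4 between the batches (37.3%), 4 in 2D against day 7 (51.2%) and 3 in 2D against day 13 (49.6%). Groups did not overlap for 3, 2, 5, 4, 4 and 1 of the 8 genes in the same order of comparisons, against 48.3%, 19.5%, 37.3%, 35.9%, 32.3% and 20.3% of all genes. Since the levels chose the genes, nothing is read from these counts.

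**Figure D2:**
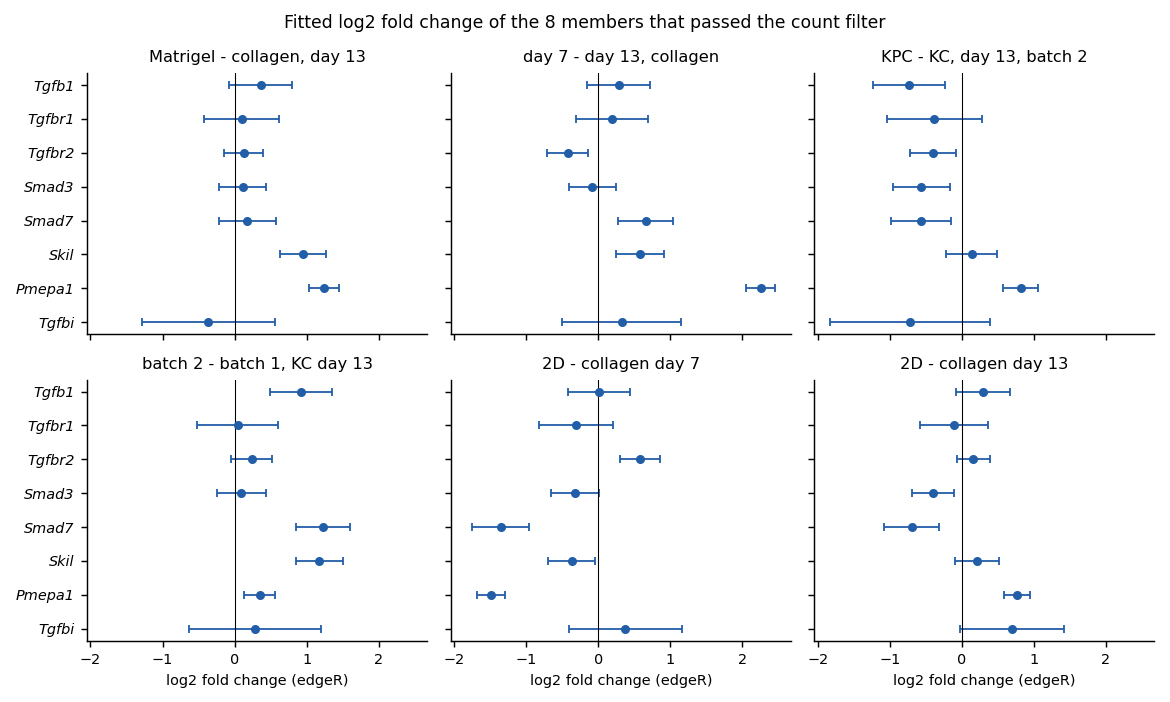
Fitted log2 fold change (horizontal axes, first group minus second) of the 8 genes that entered the fit, with 95% intervals, in the 6 comparisons. Pmepa1 reaches 2.25 at day 7 against day 13 and -1.49 in 2D against day 7, Smad7 and Skil lie near 1.2 between the batches, and Tgfbi has the widest intervals.

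The rest of the pathway was described with 83 further genes in 6 lists by role, of which 81 are in the table and 65 were tested. These lists were also chosen with earlier results of these data known, so their counts and p-values are no independent support. In Matrigel against collagen at day 13, 7 of the 10 tested genes of ligand release and activation rose and none fell (edgeR's quasi-likelihood test, adjusted p under 0.1), where 6.62% of all genes rose and 6.29% fell. The other 3 did not pass the test. The 10 had a median log2 difference of 0.55 against -0.01 over all genes tested. The integrin subunit Itgb6 was at 40.8 ± 3.10 CPM (SD, n = 3) in Matrigel and 16.3 ± 6.82 CPM (SD, n = 5) in collagen of the first batch. The log2 difference was 1.32 with an edgeR adjusted p of 0.000225. KC collagen of the second batch, at the same day, had 34.2 ± 2.14 CPM (SD, n = 3), so the difference depends on the batch it is set against. The latent TGF-beta binding protein Ltbp2 was at 10.3 ± 0.609 CPM in Matrigel and at 1.14 ± 0.843 CPM in collagen. Its fitted log2 difference of 3.10 rests on a group near the floor. The ligand genes Tgfb3 and Inhba overlapped between the matrices, at log2 differences of 0.30 and 0.20.

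Targets split in Matrigel. Of 17 tested, 3 rose and 1 fell. Ccn2, a matricellular growth factor also driven by YAP, rose by 1.97 ± 0.212, at 73.7 ± 9.93 CPM (SD, n = 3) in Matrigel against 18.6 ± 4.71 CPM (SD, n = 5) in collagen, and the transcription factor gene Sox4 by 1.37 ± 0.129. Junb, which is also on the dissociation list, was the one that fell (-0.59 ± 0.126), and the sum of that list was lower in Matrigel as given above. In the BMP arm, a sister pathway that signals through Smad1 and Smad5, Bmp4 rose by 1.59 ± 0.339 while the targets Id1 and Id3 fell (-0.96 ± 0.151 and -0.996 ± 0.2003). Id1 stood at 201 ± 14.1 CPM in Matrigel and 392 ± 27.4 CPM in collagen. Smad2 and Smad4 did not pass the test, at -0.18 and 0.03. Over the 65 genes 15 rose and 3 fell, with a median of 0.20.

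Between day 7 and day 13 in collagen, 36 of the 65 genes passed the test, 21 higher and 15 lower at day 7. Of all genes 28.1% were higher and 27.1% lower. Of the 17 targets 9 were higher and 5 lower, with a median of 0.46 against 0.01 over all genes. The mesenchymal gene Vim led them at 3183 ± 283 CPM (SD, n = 3) against 832 ± 103 CPM (SD, n = 5), a log2 difference of 1.94 ± 0.116 with an edgeR adjusted p of 1.61e-12. Lgals1 (1.60) and Zeb1 (1.11), a transcription factor of epithelial-mesenchymal transition, rose with it, and so did the central Smads, Smad4 by 0.45 ± 0.119 and Smad2 by 0.38 ± 0.121 (edgeR adjusted p = 0.0119, and 0.157 with libraries scaled by their size alone). Smad4 was at 61.3 ± 3.93 CPM at day 7 and 44.8 ± 5.85 CPM at day 13 of the first batch (SD). KC collagen of the second batch, also at day 13, had 59.0 ± 7.60 CPM, so the Smad4 difference depends on the batch it is set against. Smad2 was at 55.1 ± 4.92, 42.5 ± 3.09 and 46.5 ± 4.58 CPM in the same 3 groups. Not all targets were higher at day 7. Tsc22d1, named as a TGF-beta stimulated gene, fell at day 7 (-0.60 ± 0.127). Ccn2 rose by 0.65 ± 0.233, with an edgeR adjusted p of 0.0229 that became 0.102 without day 7 library 2.

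Among the 10 tested genes of ligand release and activation, 3 were higher and 1 lower at day 7, with a median log2 difference of 0.29. The one that fell was Itgb6, which stood at 4.49 ± 0.543 CPM (SD, n = 3) against 16.3 ± 6.82 CPM at day 13 (SD, n = 5), a log2 difference of -1.86 ± 0.323 (edgeR adjusted p = 3.17e-05). Ltbp1, another latent TGF-beta binding protein, rose by 1.10 ± 0.265, at 38.6 ± 2.07 against 18.0 ± 5.45 CPM. The activin type I receptor gene Acvr1b fell (-0.90 ± 0.222), and with Acvr2a made up 2 of 3 tested receptors. Nedd4l, a ubiquitin ligase that removes active Smads, had the lowest value among the inhibitors with -1.53 ± 0.152. In the BMP arm Bmp1, a procollagen protease despite its name, rose by 1.23 ± 0.301 and Smad6, the BMP inhibitor, fell (-0.58 ± 0.186). Id1 had -0.30 ± 0.146 with an edgeR adjusted p of 0.0927, which lay between 0.103 and 0.309 without any one of day 7 libraries 1 and 2 and day 13 libraries 1, 2, 4 and 5.

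**Figure D3:**
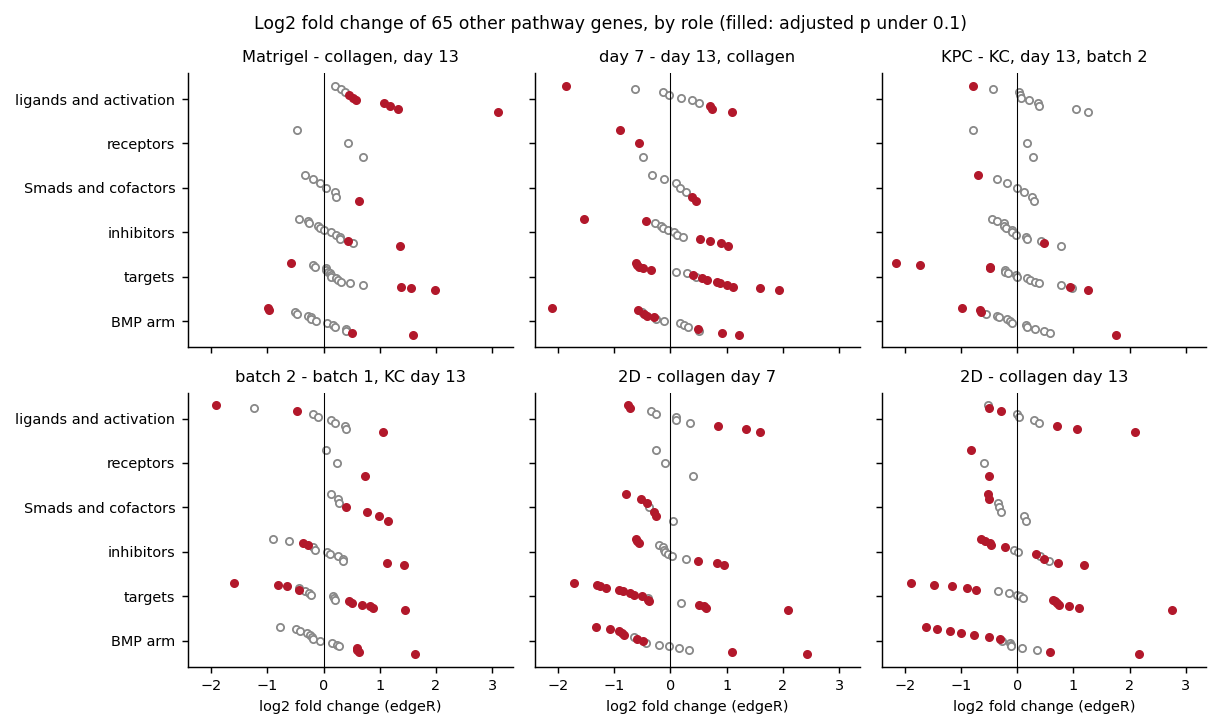
Log2 fold change (horizontal axes, first group minus second) of the 65 tested genes outside the 9, by role; each point is a gene, filled where the edgeR adjusted p is under 0.1. In Matrigel all 7 filled points among ligands and activation lie to the right, while at day 7 the targets split into 9 higher and 5 lower.

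KPC and KC organoids of the second batch differed in 13 of the 65 genes, 4 higher and 9 lower in KPC, where 9.58% of all genes were higher and 10.4% lower, and the median of the 65 was 0.00. The split was 5 higher and 5 lower when libraries were scaled by their size alone, which moves the median of all genes by 0.12. Of all genes 16.7% then passed. With these 2 groups fitted alone, 20 of 57 tested genes passed, 6 higher and 14 lower, where 34.1% of all genes passed. Cdkn1a, which encodes a cell cycle inhibitor, fell, at 304 ± 46.3 CPM in KPC against 1005 ± 153 CPM in KC (SD, n = 3 each), a log2 difference of -1.72 ± 0.152 with an edgeR adjusted p of 1.26e-08. Itgb6 was lower in KPC with -0.79 ± 0.273, but its edgeR adjusted p of 0.0507 rose to 0.110, 0.132, 0.102 and 0.155 without KC library 1 or 2 or KPC library 2 or 3. The direction was opposite for Ccn2, at 25.2 ± 5.41 against 10.5 ± 4.89 CPM (1.26 ± 0.324), and for Sox4 (0.94 ± 0.150). In the BMP arm Id4 rose by 1.75 ± 0.433 while Bmp2 (-0.98 ± 0.275) and Id1 (-0.67 ± 0.163) fell. Strap, an adaptor that holds Smad7 at the receptor, rose by 0.48 ± 0.120 (edgeR adjusted p = 0.00641, and 0.111 without the filter on low counts). Genotype, Cre driver and mouse of origin cannot be told apart in this comparison.

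The KC organoids of the second batch differed from those of the first, at the same day and in the same matrix, in 26 of the 65 genes, 18 higher and 8 lower, where 19.3% and 18.1% of all genes were. If the libraries were scaled only by their total counts, 14 were higher and 11 lower, where 36.1% of all genes passed. All 3 Id genes with high counts rose in the second batch, Id2 by 0.63 ± 0.128, Id1 by 0.59 ± 0.143 and Id3 by 0.59 ± 0.188. With them rose Bmp2 by 1.63 ± 0.247, Cdkn1a by 1.45 ± 0.129, Itgb6 by 1.06 ± 0.241 and the Smad4 ligase gene Trim33 by 1.43 ± 0.211. Tgfb3 had 1.56 ± 0.748 CPM in the second and 6.10 ± 2.37 CPM in the first batch (-1.91 ± 0.499), and Ccn2 10.5 ± 4.89 and 18.6 ± 4.71 CPM (-0.82 ± 0.304), a call that was lost without library 2 of the first (adjusted p = 0.110) or of the second batch (edgeR adjusted p = 0.308). The dissociation genes and the share of mitochondrial counts (5.59% to 6.18% against 3.01% to 4.83%) were also higher in the second batch, and their part in these differences was not tested.

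In 2D cells 40 of the 65 genes differed from organoids at day 7, 12 higher and 28 lower, where 26.4% and 24.8% of all genes were. The counts were 36 with 2D libraries 4 to 6 alone, where 46.2% of all genes passed, and 39 with libraries 1 to 3 alone, where 57.4% did. Over all 6 libraries, 11 of the 17 targets were lower and 4 higher than at day 7. Klf10, a TGF-beta early response gene, had 33.6 ± 8.28 CPM (SD, n = 6) against 106 ± 9.44 CPM (SD, n = 3), a log2 difference of -1.71 ± 0.162 that was -1.38 on libraries 1 to 3 and -1.97 on libraries 4 to 6, and Vim and Zeb2 fell too (-1.26 and -1.15), Zeb2 with 0.206 as its edgeR adjusted p on libraries 1 to 3 alone. Ccn2 went the other way and was highest in 2D of all groups, from 102 to 182 CPM with a median of 116, against 29.2 ± 2.66 CPM at day 7 (2.10 ± 0.212). Thbs1, the thrombospondin that frees latent TGF-beta, rose by 1.59 ± 0.306, or 1.98 on libraries 1 to 3 and 1.29 on libraries 4 to 6, and Bmp4 by 2.43 ± 0.351. Id1 and Id3 fell (-1.31 ± 0.140 and -1.07 ± 0.186). Id3 had 127 to 148 CPM in 2D libraries 1 to 3 and 61.5 to 77.2 CPM in libraries 4 to 6, all below day 7.

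Against organoids at day 13 of the first batch, 39 of the 65 genes differed in 2D, 16 higher and 23 lower, where 26.3% and 23.3% of all genes were. With scaling by library size alone, which lowers the median of all genes by 0.20, the split was 11 and 29. With 2D libraries 4 to 6 alone it was 13 and 22, and with libraries 1 to 3 alone 24 and 20. Of all genes 47.6%, 39.2% and 54.9% passed in these 3 fits. Id1 (-1.62 ± 0.125) and Junb (-1.47 ± 0.104) fell, and Ccn2 (2.75 ± 0.188), Bmp4 (2.16 ± 0.290) and Thbs1 (2.09 ± 0.278) rose most among the genes named by rule. The Smad repressor gene Ski was lower in 2D than in either organoid group (-0.64 ± 0.146 against day 13 and -0.59 ± 0.166 against day 7, the latter with an edgeR adjusted p of 0.110 without day 7 library 3). Smad6 fell by 0.77 on the log2 scale against day 13. The 2D sets differed in it, at 14.7 ± 1.80 CPM in libraries 1 to 3 and 25.7 ± 5.47 CPM in libraries 4 to 6 (SD, n = 3 each), with log2 differences of -1.29 and -0.53. Against day 7 the values were -0.73 and 0.10, of which the first alone passed the test. Tgfb3 rose by 0.71 ± 0.273 over all 6 libraries, with an edgeR adjusted p of 0.0362 that was 0.273 on libraries 4 to 6, 0.106 without 2D library 1 and 0.123 without day 13 library 3. The co-receptor gene Tgfbr3 and the pseudoreceptor gene Bambi were below the count filter, with group means of 0.912 to 2.72 and 0.665 to 2.22 CPM.

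**Figure D4:**
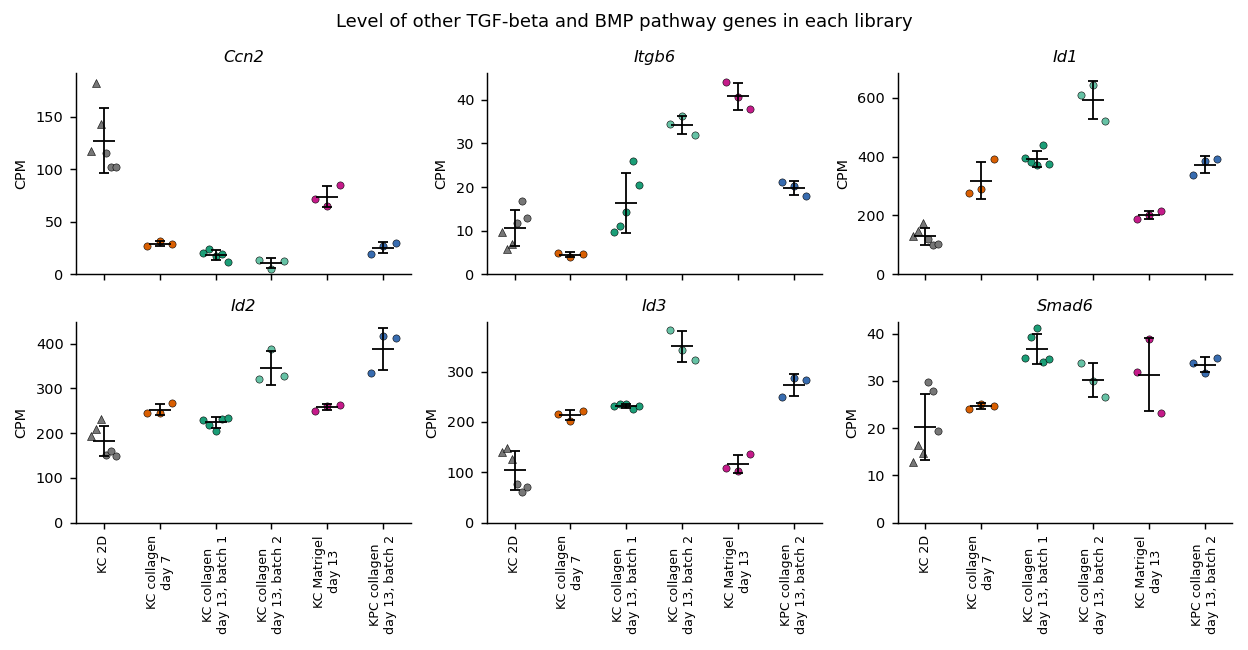
Level in CPM (vertical axes from 0) of 6 genes outside the 9 in each library, with points, triangles and bars as in the plot of the members. Itgb6 is highest in Matrigel, Ccn2 in 2D and Id1 and Id3 in batch 2 of the KC organoids.

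Genes with the most similar pattern to each member were sought among all fitted genes by Pearson's r of log2 CPM over the 23 libraries, which share culture, batch and depth. For Pmepa1 these were Fbln2, a matrix glycoprotein (r = 0.934), and Msn, the cytoskeletal linker moesin (0.931). Smad7 was closest to Bok (0.918) and Abhd2 (0.913), and Skil to Myo10 (0.885) and Cep170 (0.862). Smad3 followed Fam160a2 (0.842) and Stk24 (0.809), and Tgfb1 followed Pcgf2 (0.813) and Clcc1 (0.76). The closest genes were Ifi27 (0.765) and Hcfc1r1 (0.749) for Tgfbr2, Ndufaf8 (0.794) and Arl6 (0.765) for Tgfbi, and Qser1 (0.67) and Dock9 (0.658) for Tgfbr1. No member had another member among its 2 nearest genes by construction. The highest value between members was 0.677, for Smad7 and Skil. It cannot be weighed against the nearest genes, which were the highest of far more candidates.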

How the data were processed

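RNA of 23 bulk cultures was measured from the 3' ends of polyadenylated transcripts. The authors aligned the reads to GRCm38, counted unique molecular identifiers per gene with GENCODE M25 and deposited whole-number counts for 27207 genes, with no normalization. Groups were taken from the labels. The 9 members, the pathway lists and the tests were chosen with earlier results of these data known. Counts were analysed in R 4.3.3 with edgeR 4.0.16: filterByExpr kept 11144 genes, TMM factors gave CPM, and the quasi-likelihood test was run in 1 fit of the 6 groups, with Benjamini-Hochberg adjustment over all genes kept and a threshold of 0.1, the false discovery rate in the study's methods. Tests were 2-sided, and the script was tested on simulated data. Besides the members, the text always names Smad2, Smad4, Smad6, Ski, Bambi, Tgfb3, Inhba, Itgb6, Tgfbr3, Ccn2, Id1, Id2 and Id3. In each comparison it may also name the 5 highest and 5 lowest called pathway genes with at least 10 CPM in the higher group. For each member it names the 2 genes outside the members with the highest correlation. Acvr2a was named after its value was seen, being 1 of 2 receptors called. The alternatives were DESeq2 1.42.0, DESeq2 size factors, library size alone, no filter, a threshold of 0.05, the compared groups alone, a replicate block, the collagen libraries of both batches, and each library left out. The use of 2D libraries 1 to 3 or 4 to 6 alone was chosen after seeing the data. Some genes and alleles are not reported here. No 2 of 253 library pairs were identical. Promoter windows came from RefSeq (GRCm38.p6).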

Additional observations from a re-analysis of the deposited data

How the results depend on the processing

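Of 735 values of the fitted members under the alternatives, 718 moved by less than the spread between replicates, 17 moved by more and 0 turned the sign of a difference whose 95% interval left out 0. Of 1808 values of the named pathway genes 1730 kept their direction and side of the threshold, 68 lost the call, 10 gained it and 0 called genes turned. Of the counts of pathway genes, 1 moved by more than 1.5 times: KPC against KC gave 20 genes in place of 13 when the 2 groups were fitted alone. Of these 6 were higher and 14 lower, with 57 of the genes tested. The share of all genes that passed rose as well, from 19.9% to 34.1%. With each library left out in turn, the counts were 14 to 18 for Matrigel, 30 to 36 for day 7, 11 to 13 for KPC, 20 to 29 for the batches, 31 to 42 for 2D against day 7 and 34 to 45 for 2D against day 13. The shares of all genes in these fits were, in the same order, 7.89% to 12.8%, 47.4% to 53.3%, 14.3% to 15.6%, 27.2% to 38.3%, 40.2% to 53.1% and 44.2% to 51.3%. Over all genes, Matrigel against collagen gave 1439 calls and 954 with scaling by library size alone.

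The replicate numbers do not mark shared animals or days in the labels. Same-numbered libraries deviated together by correlations of -0.119 to 0.188. With so few libraries per group this cannot tell whether any of them shared a preparation. With the replicate block the counts were 16 for Matrigel, 35 for day 7, 15 for KPC, 34 for the batches, 38 for 2D against day 7 and 41 for 2D against day 13. Of all genes 14%, 54.6%, 21.9%, 43.1%, 54.5% and 51.1% passed in the same order. Most libraries did not correlate best with the library of their own number in the other group. Depth limits Tgfbi, Tgfbr1 and Tgfb2, which had at most 35 counts in any library.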
